A study of Mus musculus with 8 samples.

Results

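The integrated stress response and the unfolded protein response are described here by 42 genes, chosen by name with earlier results of these data known. They are the stress sensors, the transcription factor ATF4 with its partners and targets, and the chaperones and degradation factors of the endoplasmic reticulum (ER). Of these, 40 had a probe set that carries the gene's symbol alone, out of 22180 genes with such a probe set, and 38 were bright enough to be tested, out of 11585 genes tested. Pycr1 and Pdia4 are not analysed here, because no probe set carries either symbol alone. RNA was measured in sorted CD4SP thymocytes, which carry CD4 but not CD8 and are the helper-lineage T cells made late in thymic development, from mice of the C57BL/6 background. The 8 arrays comprise 4 labelled Pggt1b_KO (KO) and 4 labelled WT, and the labels name no further allele and no drug or other agent. Pggt1b encodes the beta subunit of the type I enzyme of protein geranylgeranylation, a lipid modification of proteins. The sources used here do not give the way the allele was deleted, the cells that lack it, the age of the mice or whether each array came from its own animal.

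In the integrated stress response, kinases that sense amino acid shortage or ER stress phosphorylate the initiation factor eIF2, which slows general translation while ATF4 is still made. ATF4 then induces genes of amino acid synthesis and transport, among them the serine pathway that feeds one-carbon metabolism and nucleotide synthesis. In the unfolded protein response, the ER sensors PERK, IRE1 and ATF6 act through ATF4, spliced XBP1 and cleaved ATF6 on chaperone and degradation genes. Much of this control acts on translation, splicing and proteolysis, which a summary of whole-transcript RNA does not measure.

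Levels are log2 values as deposited, and differences are KO minus WT on that scale. Calls rest on limma with Benjamini-Hochberg adjustment over all tested genes, at a threshold of 0.05. Of the 38 tested members 11 fell and 1 rose in KO, while 13.0% of all tested genes were called in either direction. Over all tested genes 8.53% fell and 4.45% rose. The share of members that fell, 28.9%, lay above this background and the share that rose, 2.63%, lay below it. Because the members were chosen with earlier results of these data known, this comparison is descriptive and is no test of an excess. When each array was centred on its own median, 1321 genes fell and 383 rose, against 988 and 515 as deposited, and of the members 13 fell and 1 rose. The median difference of the tested members was -0.13, against -0.03 over all tested genes. Differences were below 0 for 29 members, or 76.3%, and above 0 for 9, while 59.1% of all tested genes lay below 0. All KO arrays lay under all WT arrays in 13 members and over them in 2, against 13.5% and 6.79% of all tested genes. The falls were small, the largest being that of Sdf2l1 at 1.45-fold.

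The count of falls depended on single arrays. It was 4 without KO replicate 1, 2 or 3 or WT replicate 2, 5 without WT replicate 1 or 4, 7 without WT replicate 3 and 8 without KO replicate 4. The last count includes Shmt2, which was not called with all arrays. The calls of Sdf2l1, Psat1 and Shmt1 held whichever array was left out, and those of the other 8 members that fell did not. In these bulk samples, fewer cells of a type and less RNA per cell cannot be told apart.

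**Figure D1:**
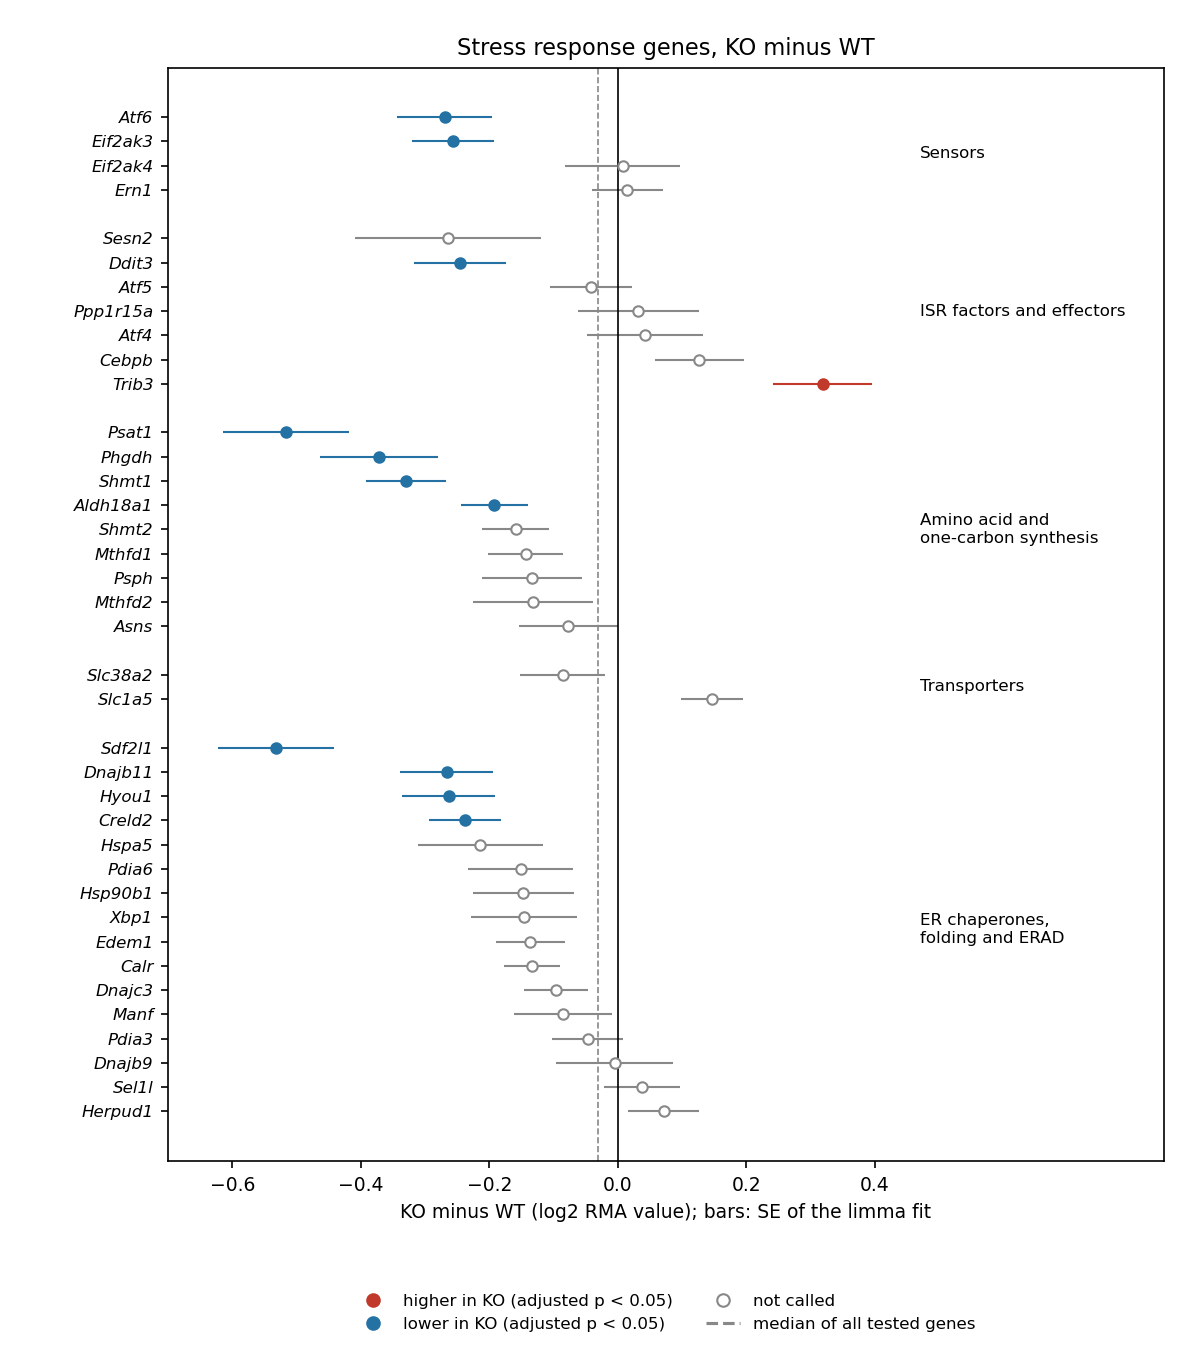
Difference between KO and WT (log2, x axis) for the 38 tested members, grouped by role, with bars for the standard error of the limma fit and a dashed line at the median of all tested genes, -0.03. Filled points mark the 11 members called lower and Trib3, called higher; all 9 tested genes of amino acid and one-carbon synthesis lie left of 0.

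Several facts of the whole series touch these values. Pggt1b itself stood at 7.89, 7.57, 7.69 and 7.86 in KO and at 8.35, 8.38, 8.29 and 8.36 in WT, a difference of -0.59 ± 0.072 SE (limma adjusted p = 0.00141). The sources used here do not say which part of the transcript the probe set covers. The 8 measured CD4SP markers, such as Cd4 and Cd3e, averaged between 11.62 and 11.66 in KO and between 11.63 and 11.67 in WT. By limma 0 of these 8 were called, and 1 passed an unadjusted p of 0.05. The 8 measured B and plasma cell markers averaged between 5.16 and 5.22 in KO and between 5.07 and 5.23 in WT. Of these, 6 lay under the intensity filter of 5.56, and Prdm1, a transcriptional repressor that T cells also express, rose by 0.49 ± 0.10 SE (adjusted p = 0.0165). Double-positive thymocyte markers, of the stage before, averaged between 7.62 and 7.97 in KO and between 7.99 and 8.31 in WT over 5 genes. Of them Cd8a fell by 0.74 ± 0.19 SE (adjusted p = 0.0354). Removing KO replicate 2 or 4, or WT replicate 2 or 3, ended this call (adjusted p up to 0.0893). Of 10 myeloid markers 5 were tested and 0 called by limma (1 at an unadjusted p under 0.05). Of 6 tested epithelial, stromal and endothelial markers only Pecam1, which T cells also express, rose. Its call was kept only on removing KO replicate 4 or WT replicate 1 (limma adjusted p up to 0.0769 otherwise). Cell cycle genes averaged between 7.87 and 8.19 in KO and between 8.18 and 8.62 in WT. Of 22 tested cell cycle genes 12 fell, among them the replication genes Mcm2, by 0.44 (adjusted p = 0.000745), and Rrm1, by 0.41 (adjusted p = 0.00163). Genes of the dissociation and heat-shock response, led by Hspa1a and Hspa1b, averaged between 8.00 and 9.79 in KO and between 8.16 and 9.16 in WT. With the cell cycle mean as a covariate limma called 0 of the 38 members (9 lower and 0 higher at an unadjusted p under 0.05) and 44 of all genes. In that fit the median difference of the members was -0.15, against -0.13 without the covariate. For amino acid and one-carbon synthesis it was -0.26 against -0.16, and for the ER list -0.26 against -0.14. For the stress sensors it was -0.03 against -0.12, and for the stress response factors and effectors 0.03 in both fits. The cell cycle mean itself differed between the genotypes, so this fit cannot tell the 2 apart. With the mean level of Hspa1a and Hspa1b as the covariate 4 members fell and 0 rose, and the median member difference was -0.13, as without it. For the stress response factors and effectors the median was -0.06 in that fit, against 0.03 without the covariate. It was -0.17 for amino acid and one-carbon synthesis, -0.13 for the ER list and -0.11 for the stress sensors. The part of cell cycle, cell type and heat-shock levels in the results below was otherwise not tested.

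Sequence elements in promoters were examined first, since stress-induced members are known to carry them. RefSeq windows of GRCm38.p6, from 250 bases before to 50 after a gene's start, were found for 38 of the 42 members, in 41 windows. The ER stress response element (ERSE) was searched as CCAAT and CCACG with 9 free bases between them, and its second form, ERSE-II, as ATTGG and CCACG with 1 free base between them. The C/EBP-ATF response element (CARE), which ATF4 binds with a C/EBP partner, was searched as TGATG and AA with 1 free base between them, and an XBP1-type element (UPRE) as TGACGTGG. Both strands were searched for each, and no match in a member overlapped a match to another of these elements. The first element occurred in 0.119% of all 32851 windows and in 6 of the 15 windows of the ER list, those of Calr, Creld2, Dnajc3, Hsp90b1, Hspa5 and Pdia6. ERSE-II occurred in 0.0365% of all windows and in 2 of the ER list, those of Dnajb11 and Herpud1. CARE occurred in 3.97% of all windows and in those of Trib3, Chac1, Asns, Pycr1, Slc7a11 and Herpud1. TGACGTGG occurred in 0.676% of all windows and in 0 of the 41 member windows.

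The windows below show the element in members that fell (Creld2, Dnajb11), in ER members with the element that were not called (Hspa5, Hsp90b1, Herpud1), in the member that rose (Trib3) and in Asns, another ATF4 target. Each holds the element in capitals with up to 20 bases on either side, ending at the latest at base 30 after the start, 5′ to 3′ on the gene's strand, from RefSeq, GRCm38.p6. Capitals that read as the reverse complement show an element on the opposite strand.
Creld2, ERSE, chr15:88819500-88819558, plus strand: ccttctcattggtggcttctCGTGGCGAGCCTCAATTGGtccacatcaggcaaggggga
Dnajb11, ERSE-II, chr16:22857832-22857874, plus strand: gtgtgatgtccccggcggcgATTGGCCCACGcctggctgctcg
Hspa5, ERSE, chr2:34772005-34772063, plus strand: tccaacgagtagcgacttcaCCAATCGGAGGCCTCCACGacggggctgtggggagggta
Hsp90b1, ERSE, chr10:86705513-86705571, minus strand: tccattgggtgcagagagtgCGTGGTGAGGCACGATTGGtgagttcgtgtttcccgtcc
Herpud1, ERSE-II, chr8:94386357-94386407, plus strand: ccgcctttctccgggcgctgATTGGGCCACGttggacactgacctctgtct
Trib3, CARE, chr2:152344031-152344066, minus strand: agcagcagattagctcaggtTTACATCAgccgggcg
Asns, CARE, chr6:7693205-7693252, minus strand: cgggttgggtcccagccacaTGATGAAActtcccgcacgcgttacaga
The element of Creld2 spans bases -126 to -108 from the start and that of Hspa5 bases -65 to -47. Hsp90b1 has a second match, from -212 to -194, beside the one shown. In Dnajb11 and Trib3 the element lies after the start, from 8 to 18 and from 15 to 22.

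Among the stress sensors Eif2ak3 and Atf6 fell, while Ern1, which also encodes an ER sensor, was not called. Eif2ak3 encodes PERK, the ER kinase that phosphorylates eIF2. It stood at 8.52, 8.34, 8.47 and 8.37 in KO and at 8.70, 8.80, 8.62 and 8.59 in WT, without overlap, and fell by 0.26 ± 0.064 SE (1.19-fold, adjusted p = 0.0298). Atf6 encodes the ER membrane protein whose cleaved form is a transcription factor. It stood at 8.33, 8.45, 8.61 and 8.40 in KO and at 8.62, 8.85, 8.64 and 8.76 in WT, where KO replicate 3 and WT replicate 1 nearly met, and fell by 0.27 ± 0.075 SE (1.21-fold, adjusted p = 0.0423). Ern1, which encodes IRE1, the nuclease that splices Xbp1 RNA, stood at 8.31, 8.23, 8.44 and 8.33 in KO and at 8.36, 8.32, 8.31 and 8.26 in WT, a difference of 0.01 (adjusted p = 0.892). Eif2ak4, which encodes GCN2, the kinase that senses uncharged tRNA, stood at 7.49, 7.33, 7.33 and 7.22 in KO and at 7.46, 7.44, 7.35 and 7.09 in WT, a difference of 0.01 (adjusted p = 0.969). For Ern1 and Eif2ak4 the arrays of the genotypes were interleaved. The call of Eif2ak3 was kept only when KO replicate 1, WT replicate 3 or WT replicate 4 was the array removed (adjusted p up to 0.0750 otherwise), and that of Atf6 only on removing KO replicate 3 or WT replicate 1 (up to 0.112 otherwise). By limma 0 of the 4 sensors rose, and 0 did at an unadjusted p under 0.05.

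Transcription factors and effectors of the integrated stress response did not move as a group. Of 7 tested, 1 rose and 1 fell, and the list's median of 0.03 and mean of -0.0043 differed in sign. Atf4 RNA stood at 7.51, 7.41, 7.08 and 7.26 in KO and at 7.24, 7.23, 7.39 and 7.21 in WT, with KO arrays on both sides of the WT arrays, a difference of 0.04 ± 0.090 SE (adjusted p = 0.802). Trib3, a pseudokinase that ATF4 and CHOP induce and that restrains them, stood at 6.63, 6.67, 6.48 and 6.60 in KO and at 6.18, 6.12, 6.39 and 6.41 in WT. All KO arrays lay above all WT arrays, and Trib3 rose by 0.32 ± 0.077 SE (1.25-fold, adjusted p = 0.0273). Ddit3, which encodes CHOP, a factor of prolonged ER stress, moved the other way. It stood at 8.44, 8.53, 8.56 and 8.68 in KO and at 8.83, 8.79, 8.65 and 8.91 in WT, where KO replicate 4 lay above WT replicate 3, and fell by 0.25 ± 0.071 SE (1.19-fold, adjusted p = 0.0494). The call of Trib3 was kept only on removing KO replicate 3, WT replicate 3 or WT replicate 4 (adjusted p up to 0.0726 otherwise). That of Ddit3 was kept only on removing KO replicate 4 or WT replicate 3 (up to 0.127 otherwise).

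The remaining factors and effectors were not called. Sesn2, a stress-induced inhibitor of mTORC1, stood at 6.23, 5.83, 5.75 and 6.04 in KO and at 5.91, 6.36, 6.10 and 6.54 in WT, a difference of -0.26 with a standard error of 0.14 (adjusted p = 0.260). Its arrays overlapped widely, and WT replicate 4 was the highest. Cebpb, a C/EBP partner of ATF4, stood at 5.93, 5.89, 5.91 and 5.78 in KO and at 5.93, 5.64, 5.71 and 5.73 in WT, a difference of 0.13 (adjusted p = 0.261). Ppp1r15a, the GADD34 subunit that recruits a phosphatase to eIF2, and Atf5, a relative of ATF4, differed by 0.03 and -0.04 (adjusted p = 0.859 and 0.719). Ppp1r15a and Atf4 were both highest in KO replicate 1 and lowest in KO replicate 3, which also had the highest and the lowest mean of the dissociation and heat-shock genes, 9.79 and 8.00. In WT, Ppp1r15a was highest in replicate 1, at 7.86, the WT array with the lowest heat-shock mean, 8.16. Atf4 was highest in WT replicate 3, at 7.39, the WT array with the highest heat-shock mean, 9.16. The relation of these genes to the heat-shock mean was not tested. Chac1, an enzyme that degrades glutathione, lay under the intensity filter and was not tested, at 5.29 ± 0.075 in KO and 5.21 ± 0.17 in WT (SD, n = 4 each).

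**Figure D2:**
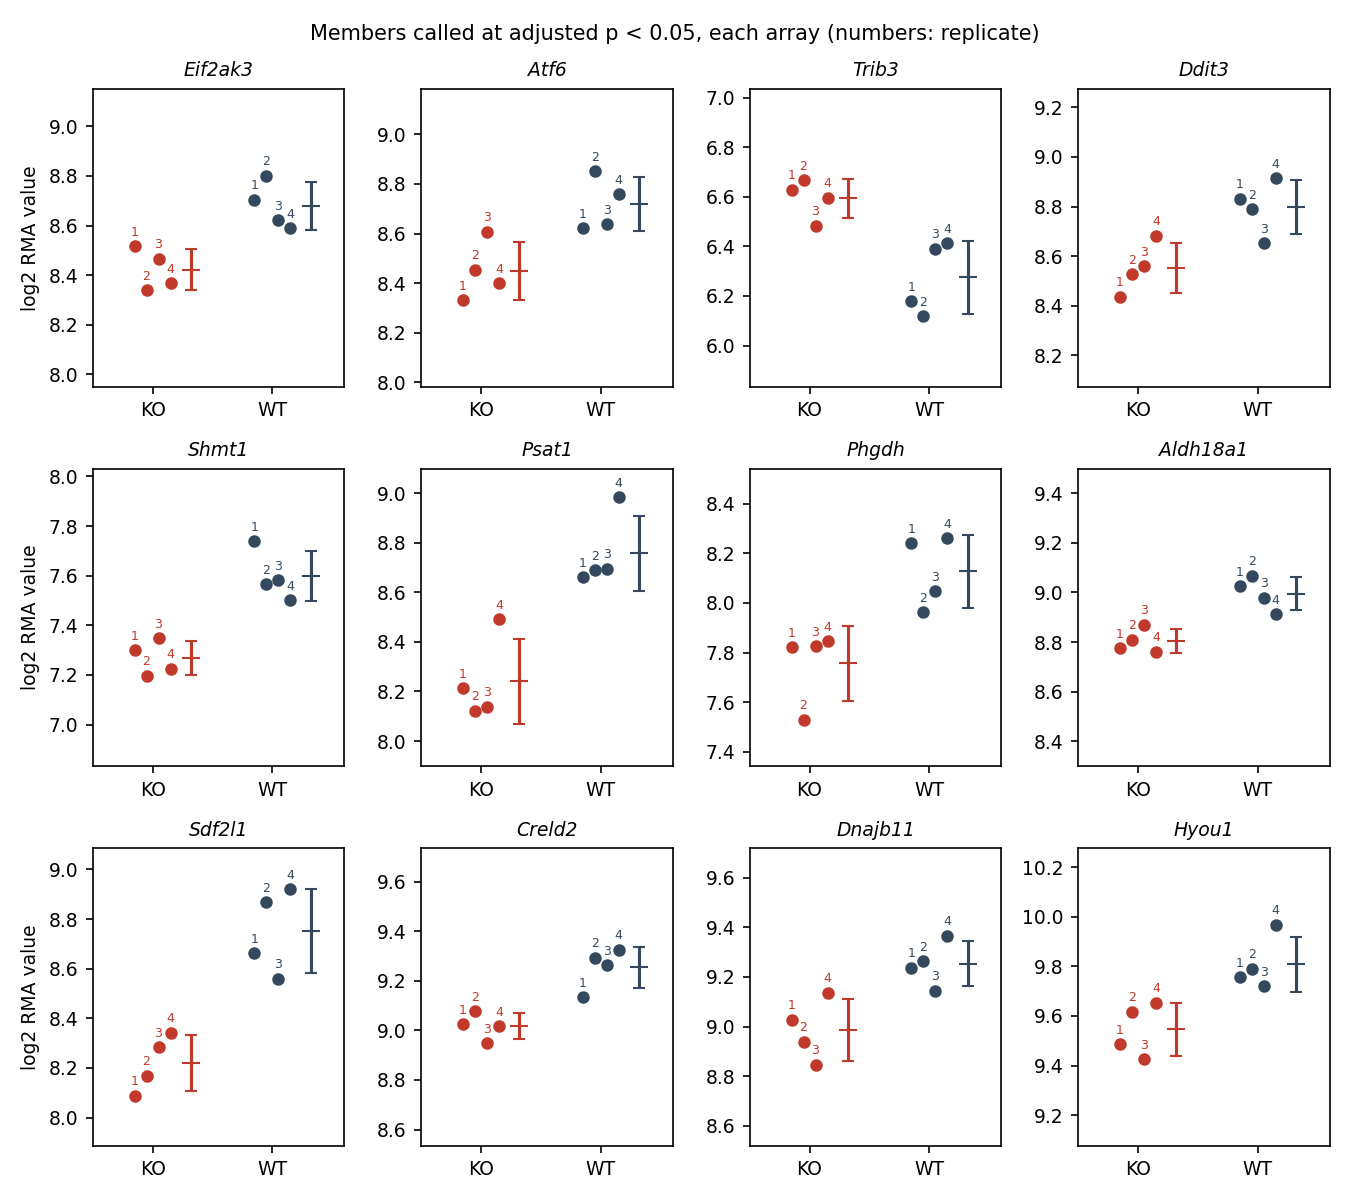
Log2 value (y axis, a span of 1.2 in every panel) of the 12 members that passed the threshold on each array, with replicate numbers beside the points and mean ± SD at the right of each genotype. KO arrays lie below all WT arrays for 10 of the 11 members that fell, and for Ddit3 KO replicate 4 lies above WT replicate 3.

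Genes of amino acid and one-carbon synthesis were lower in KO. Of 9 tested 4 fell and 0 rose (0 by limma also at an unadjusted p under 0.05). The share that fell was 44.4%, against 8.53% of all tested genes. All 9 differences were below 0, with a median of -0.16, while 59.1% of all tested genes lay below 0. Averaged over these 9 genes, the KO arrays lay at 8.08, 8.06, 8.05 and 8.08 and the WT arrays at 8.32, 8.26, 8.27 and 8.33. The spread within each genotype was thus smaller than the gap between them.

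The serine pathway held the largest of these falls. Psat1, the aminotransferase of its middle step, stood at 8.21, 8.12, 8.14 and 8.49 in KO and at 8.66, 8.69, 8.69 and 8.98 in WT. It fell by 0.52 ± 0.098 SE (1.43-fold, adjusted p = 0.0102), and KO replicate 4 and WT replicate 4 were the highest of their genotypes. Phgdh, the dehydrogenase that commits a glycolytic intermediate to serine, stood at 7.82, 7.53, 7.83 and 7.85 in KO and at 8.24, 7.96, 8.05 and 8.26 in WT, without overlap. It fell by 0.37 ± 0.092 SE (1.29-fold, adjusted p = 0.0291). Psph, the phosphatase of the last step, stood at 7.49, 7.48, 7.34 and 7.29 in KO and at 7.50, 7.61, 7.36 and 7.67 in WT, with overlap, and its difference of -0.13 was not called (adjusted p = 0.292). The call of Phgdh was kept only on removing KO replicate 4, WT replicate 2 or WT replicate 3 (adjusted p up to 0.0651 otherwise).

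The folate enzymes that pass on carbon from serine were measured in both compartments. Shmt1, the cytosolic serine hydroxymethyltransferase, stood at 7.30, 7.20, 7.35 and 7.22 in KO and at 7.74, 7.56, 7.58 and 7.50 in WT. Its KO arrays lay wholly under its WT arrays, and it fell by 0.33 ± 0.063 SE (1.26-fold, adjusted p = 0.0102). Shmt2, its mitochondrial counterpart, stood at 10.18, 10.20, 10.18 and 10.35 in KO and at 10.36, 10.38, 10.37 and 10.43 in WT. Its arrays did not overlap, yet its difference of -0.16 ± 0.053 SE was not called (adjusted p = 0.0779). Shmt2 was called lower without KO replicate 4 (adjusted p = 0.0373). Mthfd1, the cytosolic trifunctional folate enzyme, and Mthfd2, a mitochondrial dehydrogenase, differed by -0.14 and -0.13 (adjusted p = 0.138 and 0.393), with overlap.

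Aldh18a1, which starts proline synthesis from glutamate, stood at 8.77, 8.81, 8.87 and 8.76 in KO and at 9.02, 9.07, 8.98 and 8.91 in WT, and fell by 0.19 ± 0.052 SE (1.14-fold, adjusted p = 0.0391). The arrays did not overlap, but the call was kept only on removing WT replicate 4 (adjusted p up to 0.101 otherwise). Asns, asparagine synthetase and a standard ATF4 target, stood near the filter at 5.68, 5.81, 5.77 and 5.55 in KO and at 5.69, 5.67, 5.91 and 5.85 in WT, a difference of -0.08 (adjusted p = 0.555). The cell cycle mean was on average also lower in KO. With it as a covariate limma called 0 of these 9 genes, all 9 differences stayed below 0 and their median was -0.26. That fit cannot tell the cell cycle mean from genotype, since the mean itself differed between the genotypes. By array the cell cycle mean stood at 7.98, 7.87, 7.97 and 8.19 in KO and at 8.50, 8.62, 8.52 and 8.18 in WT.

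Amino acid transporters were not called. Slc1a5, which carries glutamine and other neutral amino acids, stood at 10.46, 10.37, 10.52 and 10.49 in KO and at 10.30, 10.32, 10.31 and 10.32 in WT, without overlap. Its difference of 0.15 ± 0.048 SE gave an adjusted p of 0.0777, and it was called higher without KO replicate 2. A second, dimmer probe set of Slc1a5 lay between 6.79 and 7.30 in KO and between 6.91 and 7.10 in WT and overlapped, and with both probe sets averaged the difference was 0.08 (adjusted p = 0.438). Slc38a2, a sodium-coupled carrier of neutral amino acids, stood at 11.49, 11.29, 11.29 and 11.29 in KO and at 11.33, 11.39, 11.53 and 11.44 in WT, a difference of -0.09 (adjusted p = 0.428), with KO replicate 1 apart from the other 3 KO arrays. Slc7a11, the cystine carrier, lay under the filter and was not tested, at 4.92 ± 0.24 in KO and 5.21 ± 0.28 in WT (SD, n = 4 each).

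Among ER chaperones, folding enzymes and degradation factors the called changes all ran downward. Of 16 tested 4 fell and 0 rose (0 by limma also at an unadjusted p under 0.05). The share that fell was 25.0%, against 8.53% of all tested genes. Differences were below 0 for 14 genes, or 87.5%, against 59.1% of all tested genes, with a median of -0.14. Averaged over the 16 genes, the KO arrays lay at 9.53, 9.50, 9.48 and 9.56 and the WT arrays at 9.61, 9.67, 9.61 and 9.77. WT replicate 4 was the highest of all 8 arrays for 11 of the 16 genes. Without it the median difference was -0.08. A single gene of the 16 fell without that array, and likewise without KO replicate 1, KO replicate 3 or WT replicate 2.

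Sdf2l1, an ER protein that works with BiP and DnaJ partners, had the largest fall of all members. It stood at 8.09, 8.17, 8.28 and 8.34 in KO and at 8.66, 8.87, 8.56 and 8.92 in WT, well apart, and fell by 0.53 ± 0.090 SE (1.45-fold, adjusted p = 0.00609). Dnajb11, the ERdj3 cofactor of BiP, stood at 9.03, 8.94, 8.85 and 9.14 in KO and at 9.24, 9.26, 9.14 and 9.37 in WT, where KO replicate 4 came close to WT replicate 3. It fell by 0.27 ± 0.073 SE (1.20-fold, adjusted p = 0.0403). Hyou1, a large ER chaperone that exchanges the nucleotide of BiP, stood at 9.49, 9.62, 9.43 and 9.65 in KO and at 9.76, 9.79, 9.72 and 9.97 in WT, and fell by 0.26 ± 0.073 SE (1.20-fold, adjusted p = 0.0421). Creld2, an ER protein induced by ATF6 that can act as a disulfide isomerase, stood at 9.02, 9.08, 8.95 and 9.02 in KO and at 9.13, 9.29, 9.26 and 9.32 in WT. It fell by 0.24 ± 0.056 SE (1.18-fold, adjusted p = 0.0245), and its arrays did not overlap, nor did those of Hyou1. Dnajb11 kept its call only on removing KO replicate 4 or WT replicate 3 (adjusted p up to 0.0985 otherwise), and Hyou1 only on removing KO replicate 4 (up to 0.109). Creld2 kept it only on removing KO replicate 2 or WT replicate 1 (up to 0.0663).

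BiP itself was not called. Hspa5, which encodes this central ER chaperone that also binds the sensors, stood at 9.08, 9.01, 9.10 and 9.30 in KO and at 9.22, 9.36, 9.17 and 9.59 in WT, a difference of -0.21 ± 0.098 SE (adjusted p = 0.180). KO replicate 4 lay above WT replicates 1 and 3. Hsp90b1, the ER member of the HSP90 family, differed by -0.15 (adjusted p = 0.247), and its WT replicate 4 stood at 10.89 while the other WT arrays lay between 10.55 and 10.61. Calr, a lectin chaperone that also holds calcium, stood at 11.38, 11.37, 11.40 and 11.46 in KO and at 11.55, 11.51, 11.52 and 11.55 in WT. Its arrays did not overlap, but its difference of -0.13 ± 0.044 SE gave an adjusted p of 0.0770.

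Xbp1, the transcription factor of the IRE1 branch, stood at 9.66, 9.60, 9.78 and 9.69 in KO and at 9.65, 9.82, 9.79 and 10.06 in WT, a difference of -0.15 (adjusted p = 0.277). The probe set does not tell spliced from unspliced RNA. Its known targets Dnajb9, the ERdj4 cofactor of BiP, and Edem1, which hands misfolded glycoproteins to degradation, differed by -0.0049 and -0.14 (adjusted p = 0.979 and 0.128). Dnajc3, a BiP cofactor that restrains PERK, Pdia3 and Pdia6, both disulfide isomerases, and Manf, a secreted ER stress protein, differed by -0.10, -0.05, -0.15 and -0.09, with adjusted p between 0.235 and 0.626. The degradation factors Herpud1 and Sel1l, which belong to the HRD1 ubiquitin ligase complex, stood higher in KO by 0.07 and 0.04 and were not called (adjusted p = 0.431 and 0.726).

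The ER members were also described by whether the window held an ERSE or ERSE-II, and the difference between these sets was not tested. Of 8 genes with an element 2 fell, Creld2 and Dnajb11, with a median difference of -0.15 and a range from -0.27 to 0.07. Of 6 with a window and neither element 1 fell, Sdf2l1, with a median of -0.09 and a range from -0.53 to 0.04. The KO arrays lay wholly under the WT arrays in 4 of the 8 and in 1 of the 6, against 13.5% of all tested genes. Hyou1 and Manf had no window, and Hyou1 fell. Among members with a CARE in the window only Trib3 was called, while Asns and Herpud1 were not and Chac1 and Slc7a11 were not tested. The serine pathway genes that fell, Psat1, Phgdh and Shmt1, had no match to these letters in their windows.

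**Figure D3:**
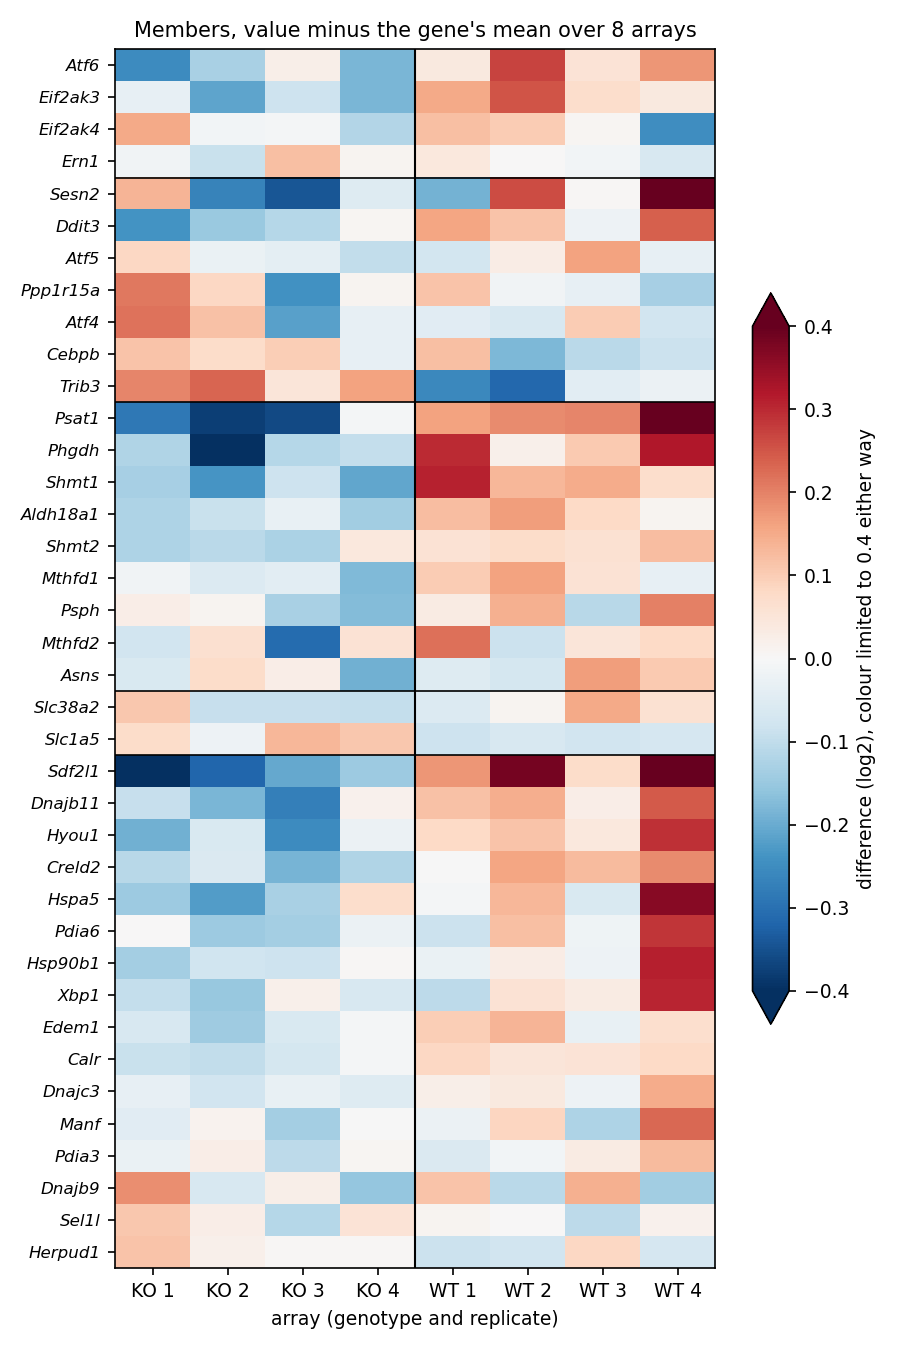
Value of each of the 38 tested members on each array minus the gene's mean over the 8 arrays (colour, log2), with KO arrays at the left and members grouped by role and ordered by their difference. WT replicate 4 is the highest array for 11 of the 16 genes of the ER list at the bottom.

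Of 78 further genes of the same pathways 8 were called, a share of 10.3%, against 13.0% of all tested genes. Of 12 further genes that control the integrated stress response 1 fell and 0 rose (2 and 0 by limma at an unadjusted p under 0.05), with a median difference of -0.02. The one that fell was Eif2b2, a subunit of the exchange factor for eIF2, by 0.22 ± 0.048 SE (adjusted p = 0.0176). Removing KO replicate 1, KO replicate 3 or WT replicate 2 ended this call (adjusted p up to 0.0539). Of 14 further ATF4-linked amino acid and folate genes 1 rose and 1 fell, with a median of -0.04. Mthfd1l, a mitochondrial enzyme that makes formate, stood at 8.17, 8.05, 8.07 and 8.14 in KO and at 7.91, 7.91, 7.78 and 7.88 in WT. It rose by 0.24 ± 0.052 SE (adjusted p = 0.0185), opposite to the cytosolic Shmt1. Removing KO replicate 1 ended this call (adjusted p = 0.0562). Gpt2, a mitochondrial alanine aminotransferase, fell by 0.41 ± 0.11 SE (adjusted p = 0.0425), with arrays that overlapped and a call kept only on removing KO replicate 2, WT replicate 1 or WT replicate 3 (adjusted p up to 0.102 otherwise).

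Of 18 tested aminoacyl-tRNA synthetases, many of which ATF4 induces, 1 fell, a share below the 8.53% of all tested genes. Their mean lay between 9.28 and 9.35 in the KO arrays and between 9.36 and 9.43 in the WT arrays. Differences were below 0 for 15 of the 18, or 83.3%, against 59.1% of all tested genes, with a median of -0.11. The called gene was Kars, the lysyl enzyme, which fell by 0.21 ± 0.056 SE (adjusted p = 0.0406). This call was kept only on removing WT replicate 3 (adjusted p up to 0.103 otherwise). In 7 of the 18 the KO arrays lay wholly under the WT arrays, a larger share than the 13.5% of all tested genes.

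Of 34 further ER folding and degradation genes 3 fell and 1 rose, with a median difference of -0.06. These shares, 8.82% and 2.94%, were near the 8.53% and 4.45% of all tested genes. Hspa13, an HSP70-like protein of microsomes, stood at 7.80, 7.65, 7.46 and 7.57 in KO and at 7.94, 8.07, 7.94 and 8.18 in WT, and fell by 0.41 ± 0.083 SE (1.33-fold, adjusted p = 0.0132). Atf6b, a relative of Atf6, fell by 0.22 ± 0.046 SE (adjusted p = 0.0145), and P4hb, protein disulfide isomerase, by 0.20 ± 0.044 SE (adjusted p = 0.0183). Removing KO replicate 1 or 3 ended the call of P4hb (adjusted p up to 0.0536). Ero1b, an oxidase that recharges protein disulfide isomerase, moved the other way. It stood at 7.55, 7.32, 7.19 and 7.25 in KO and at 6.89, 6.97, 6.86 and 6.92 in WT, and rose by 0.42 ± 0.077 SE (1.33-fold, adjusted p = 0.00938), with KO replicate 1 the highest.

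**Figure D4:**
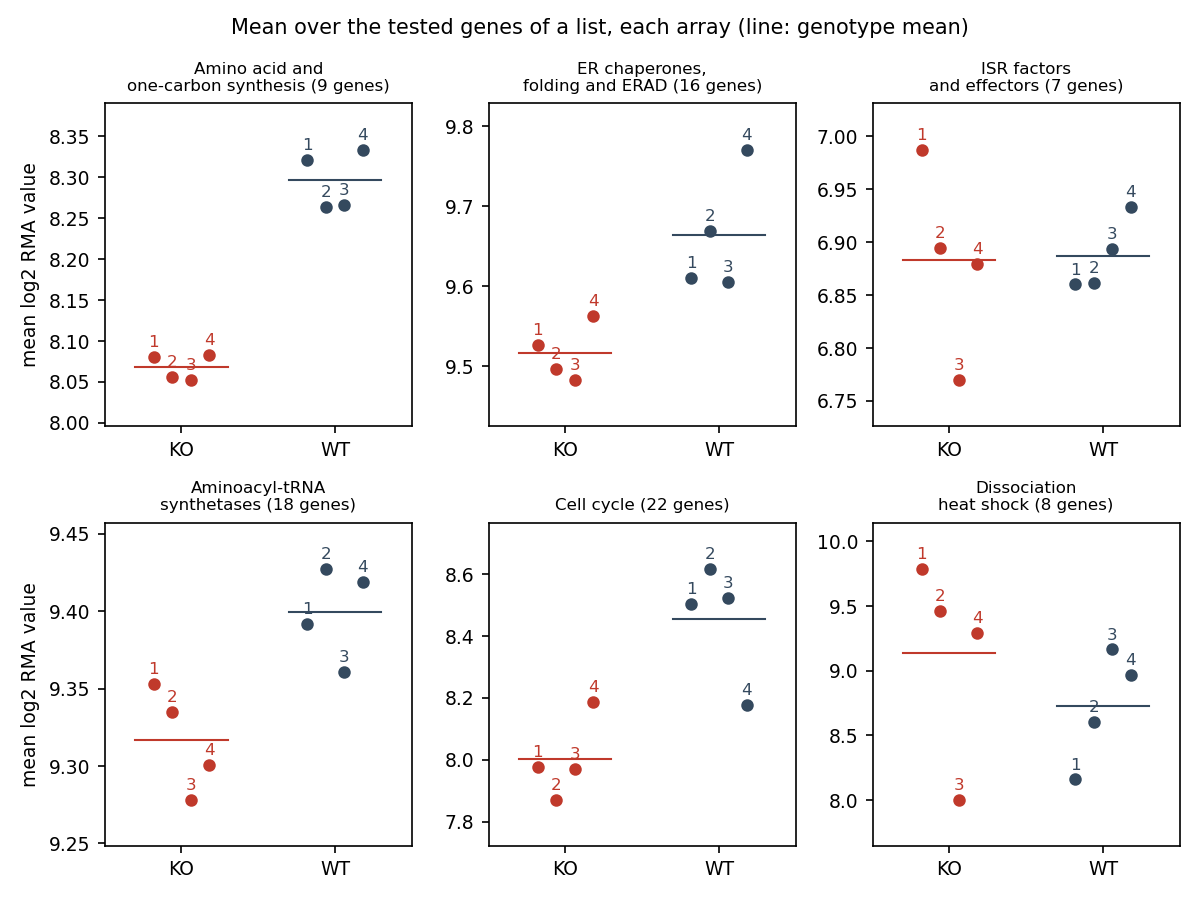
Mean log2 value (y axis, not from 0) over the tested genes of 6 lists on each array, with KO at the left, replicate numbers beside the points and a line at each genotype mean. KO and WT arrays are separate for amino acid and one-carbon synthesis, the ER list and the aminoacyl-tRNA synthetases, and they overlap for the stress response factors, the cell cycle and the heat-shock genes.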

How the data were processed

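RNA from sorted thymocytes was amplified, biotinylated and read on Affymetrix mouse gene arrays, 1 per sample, per the labels' protocols and descriptions. The authors deposited log2 values made by RMA with Expression Console 1.1, as the submitters' processing notes name it. This table held 41345 probe sets, with array medians between 5.52 and 5.59. The sources used here do not give its genome build.

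A platform annotation lists 25335 probe sets with a gene, 23521 with 1 symbol and 1814 with several. Each gene was represented by its brightest probe set of 1 symbol and tested where its mean reached the median of all probe sets, 5.56. The contrast of KO with WT used lmFit and two-sided eBayes tests of limma 3.58.1 (R 4.3.3), with Benjamini-Hochberg adjustment over 11585 genes. It was checked on simulated data with independent noise for each gene and array. Shifts that many genes share on an array were not simulated, so that check does not cover them. Replicates were numbered in order of deposit, and no label ties them to different animals, so the spread behind each p-value may be technical. The number of arrays limits the precision.

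The members and the lists were chosen with earlier results of these data known. Named are Pggt1b, every member, and up to 4 called genes of each further list. Alternatives changed the filter, the probe set rule, the scaling, the weights, the covariates, the threshold and the arrays. Promoter windows came from RefSeq tables.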

Additional observations from a re-analysis of the deposited data

Results flagged for a closer look

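In 9 of 82 groups of 4 arrays examined, 1 array stood far from the other 3, where chance alone gives about 1 in 20. In KO these were Slc38a2 at 11.49 and Herpud1 at 10.13, both in replicate 1, with the other KO arrays at 11.29 and between 10.02 and 10.04. Shmt2 stood at 10.35 in KO replicate 4, with the others between 10.18 and 10.20, and Phgdh at 7.53 in KO replicate 2, with the others between 7.82 and 7.85. In WT, replicate 3 stood apart for Atf4 at 7.39, Herpud1 at 10.10 and Sel1l at 9.15, the last being the lowest array. WT replicate 4 stood apart for Psat1 at 8.98 and Hsp90b1 at 10.89. KO replicate 1 and WT replicate 3, the arrays apart for Herpud1, had the highest heat-shock means of their genotypes, 9.79 and 9.16.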

How the results depend on the processing

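The differences of the 12 called members kept their sign under each alternative. The number of members lower in KO, 11, ranged from 4 to 8 when 1 array was left out. On the ATF4 and amino acid side it ranged from 2 to 5, against 5 with all arrays. In the ER list it ranged from 1 to 3, against 4. Without KO replicate 4 the genes lower included Shmt2, which was not called with all arrays, and not Aldh18a1. The number of members higher ranged from 0 to 1, and the number of all changed genes, 1503, from 813 to 1441. With no intensity filter 920 genes changed, with 3 members lower (2 ATF4 side, 1 ER) and 0 higher. With the mean level of Hspa1a and Hspa1b as the covariate 874 changed, with 4 members lower (2 and 2) and 0 higher. With the cell cycle mean as a covariate 44 genes changed and 0 members were lower or higher in either list by limma (9 lower and 0 higher at an unadjusted p under 0.05), while Sdf2l1 and Psat1 stood at -0.57 and -0.56. At an adjusted p under 0.01, 446 changed, with 1 member lower (0 and 1) and 0 higher. Without KO replicates 1 and 2 together 258 changed and 0 members were lower or higher (11 and 2 at an unadjusted p under 0.05). Without WT replicates 2 and 3 together 295 changed, with 2 members lower (1 and 1) and 0 higher. A second quantile normalization gave 0 higher, and an intensity trend with a robust prior gave 2. Centring each array on its median changed the split of all calls to 383 higher and 1321 lower, against 515 and 988. No paired analysis was possible because the labels carry no replicate numbers that the genotypes share. Amplified RNA and background signal limit the differences of dim genes.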

Other observations

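Of 34 tested genes for moving proteins into the ER and out of it in COPII vesicles 1 rose and 1 fell, with a median difference of -0.07. Each share, 2.94%, lay below that of all tested genes, 4.45% higher and 8.53% lower. Sec24a, a cargo-binding COPII coat subunit, stood at 9.51, 9.48, 9.40 and 9.54 in KO and at 9.24, 9.21, 9.20 and 9.24 in WT, and rose by 0.26 ± 0.047 SE (limma adjusted p = 0.00845). Lman1, a lectin that carries glycoproteins from the ER to the Golgi, stood at 8.77, 8.82, 8.74 and 8.60 in KO and at 8.94, 9.04, 8.99 and 9.10 in WT, and fell by 0.28 ± 0.062 SE (limma adjusted p = 0.0178). Both calls held whichever array was left out, with adjusted p up to 0.0305 for Sec24a and 0.0477 for Lman1.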
